A study of Homo sapiens with 80 samples.

Results

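SLC2A5, SLC2A1, SLC2A3 and SLC2A6 are 4 genes of the SLC2A family, which encodes the GLUT carriers. They were chosen by name and were listed in all 5 tables of counts per gene (4 of 4 in each), out of 58735 genes in the RNA-seq tables, 17463 in the DGE table and 17792 in the PRO-seq table. SLC2A5 was picked for its counts across lenalidomide, loss of ZFP91, regrowth and a CSNK2B vector, so its values are given as a description with no test. The other 3 genes were taken for their role, and are set beside it with tests.

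GLUT carriers let hexoses pass a membrane down their concentration gradient, without use of sodium or ATP. SLC2A5 encodes GLUT5, a carrier of fructose that is best known from the brush border of the small intestine. SLC2A1 encodes GLUT1, which provides basal glucose uptake in most dividing cells, and SLC2A3 encodes GLUT3, a high-affinity glucose carrier of neurons that lymphocytes also use. SLC2A6 encodes GLUT6, a carrier found on internal membranes, among them those of lysosomes, and expressed in leukocytes. Fructose that enters a cell can be phosphorylated by ketohexokinase or, more weakly, by hexokinases, and then joins glycolysis.

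The series studied how T-cell lymphoma cells become resistant to lenalidomide, a drug that brings zinc finger proteins such as IKZF1 and ZFP91 to the ubiquitin ligase adaptor cereblon. Counts were available for 42 of its 80 samples, in 14 groups of 3 libraries; the other 38 samples were ChIP-seq and were not analysed here. SU-DHL-1 and KI-JK are established human cell lines, both grown from anaplastic large cell lymphoma with an ALK fusion. SU-DHL-1 was kept in medium with 10% and KI-JK in medium with 20% fetal bovine serum. PRO-seq, which reads RNA while polymerase is still making it, covered regrown and parental SU-DHL-1. Regrown cells were 3 pools made resistant independently by long culture in rising lenalidomide and then kept without the drug for 2 months or longer. DGE, which sequences transcript ends, covered 4 groups: regrown cells given 2.5 µM lenalidomide or its solvent DMSO for 18 h, and parental cells given the same. RNA-seq covered regrown and parental SU-DHL-1 cells carrying Cas9 and an inducible guide against ZFP91. The knockout (KO) groups of that design had received 1 µg/ml doxycycline for 96 h, whereas the groups called WT were the same cells without doxycycline, so that effects of doxycycline, Cas9 cutting and loss of ZFP91 cannot be told apart. RNA-seq also covered KI-JK with a CSNK2B expression vector, KI-JK with an empty vector, and SU-DHL-1 with each of these vectors. CSNK2B encodes the regulatory subunit of casein kinase 2.

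The promoters of 2 members are shown because they differ in make-up while lying on the same chromosome, and because SLC2A5 was the member whose level varied most between groups. Each window runs 5′ to 3′ on the minus strand of RefSeq's GRCh38.p14, from 250 bases before to 50 bases after the annotated start. It covers chr1:9069586-9069885 for SLC2A5 and chr1:42958819-42959118 for SLC2A1. For SLC2A1 that start is the end of the RefSeq gene. The RefSeq gene of SLC2A5 reaches farther upstream, to base 9094195, so its window belongs to a start inside the gene and inside the counted region; which start these cells use was not tested, and distances are from the start of the window shown. Capitals mark a TATA box (TATAAA) and a CCAAT box, which reads ATTGG where it lies on the other strand.
SLC2A5: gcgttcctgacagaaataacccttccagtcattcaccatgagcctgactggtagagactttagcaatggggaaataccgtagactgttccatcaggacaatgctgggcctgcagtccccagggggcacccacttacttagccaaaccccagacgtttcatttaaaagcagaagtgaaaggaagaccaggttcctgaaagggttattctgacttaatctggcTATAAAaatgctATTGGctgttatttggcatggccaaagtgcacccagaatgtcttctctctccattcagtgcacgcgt
SLC2A1: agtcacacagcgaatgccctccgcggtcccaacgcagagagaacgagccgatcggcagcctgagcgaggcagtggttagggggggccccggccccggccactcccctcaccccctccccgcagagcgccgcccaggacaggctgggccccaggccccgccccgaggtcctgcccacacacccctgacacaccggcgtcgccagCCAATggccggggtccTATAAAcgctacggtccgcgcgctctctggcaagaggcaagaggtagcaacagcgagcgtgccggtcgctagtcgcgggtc
The SLC2A5 window was 47.7% G or C and held 5 CpG dinucleotides, and the SLC2A1 window was 71% G or C and held 30. Over 35116 promoters of the same length the median G or C content was 58.7% and the median CpG count 14; 29.6% of promoters held fewer CpG than SLC2A5 and 77.6% fewer than SLC2A1. TATAAA began 29 bases before the start in SLC2A5 and 31 bases before it in SLC2A1, and 11.5% of all promoters held it on either strand. CCAAT was found at 17 bases before the start in SLC2A5, on the other strand, and at 47 bases before it in SLC2A1, and 34.6% of all promoters held it. The SLC2A6 window, chr9:133479050-133479349, was 76% G or C and held 33 CpG, no TATAAA and 2 CCAAT matches. The letters TGANTCA (AP-1), TTCNNNGAA (STAT), TGGGAA (Ikaros core), CACGTG (E-box) and ACGTG (hypoxia core, which lies inside CACGTG) were searched on both strands and were in none of these 3 windows. Of all promoters, 7.71%, 7.66%, 24%, 7.26% and 21.4% held them in that order. SLC2A3 is named only.

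In hg38 the counted regions were chr1:9035106-9069932 for SLC2A5 (ENSG00000142583), chr1:42925375-42958868 for SLC2A1 (ENSG00000117394), chr12:7919230-7936187 for SLC2A3 (ENSG00000059804) and chr9:133471094-133479121 for SLC2A6 (ENSG00000160326), all on the minus strand. A DGE library held 41571 to 395827 counts, a PRO-seq library 33.5 M to 47.2 M and an RNA-seq library 14.4 M to 28.9 M, so a low gene is measured far less well in DGE. CSNK2B checked the vector labels, at 247 to 257 CPM (counts scaled to a library of 1 M) with the vector against 29.2 to 30.4 CPM without it in SU-DHL-1, and at 76.3 to 80.4 against 15.8 to 18.4 CPM in KI-JK. ZFP91 RNA was -0.34 ± 0.08 in parental KO against WT cells (adjusted p = 0.158) and -0.12 ± 0.10 in regrown cells (0.395) on the log2 scale, which checks little, since Cas9 changes the sequence and need not lower the RNA. The lymphoma markers ALK and TNFRSF8 had counts in every group. In the ZFP91 table, the rank correlation across 12664 genes between a gene's level and its span was -0.15 to -0.06 in regrown KO, 0.14 to 0.30 in regrown WT, -0.32 to 0.16 in parental KO and -0.25 to -0.0038 in parental WT libraries; genes are not independent replicates. The regrown WT libraries thus stood apart from both groups they are compared with on this measure, which is used below as a covariate added after seeing the data. In those comparisons the covariate runs with the group and takes up part of the group difference. A call lost with it there cannot be assigned to gene span, since a true group difference could be lost as well.

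SLC2A5 was the variable member. Its RNA was lower in regrown than in parental cells in all 3 assays, higher in parental cells under lenalidomide, lower after the ZFP91 knockout and with the CSNK2B vector in SU-DHL-1, and at the edge of detection in KI-JK. In RNA-seq the 8 groups fell into a low set and a graded set. The low set held the regrown KO (mean 0.0297 CPM), KI-JK CSNK2B vector (0.0894), KI-JK empty vector (0.0676) and regrown WT groups (0.145), whose libraries overlapped. Above it came the parental KO group at 4.35 ± 0.10 CPM (SD, n = 3 for this and the next 3), parental WT at 14.0 ± 1.59, SU-DHL-1 with the CSNK2B vector at 20.5 ± 1.64 and SU-DHL-1 with the empty vector at 64.7 ± 2.96, and no libraries of neighbouring groups overlapped there. Parental WT cells and empty-vector cells are both SU-DHL-1 from separate tables and different constructs, and their levels, 14.0 and 64.7 CPM, are given side by side only.

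**Figure D1:**
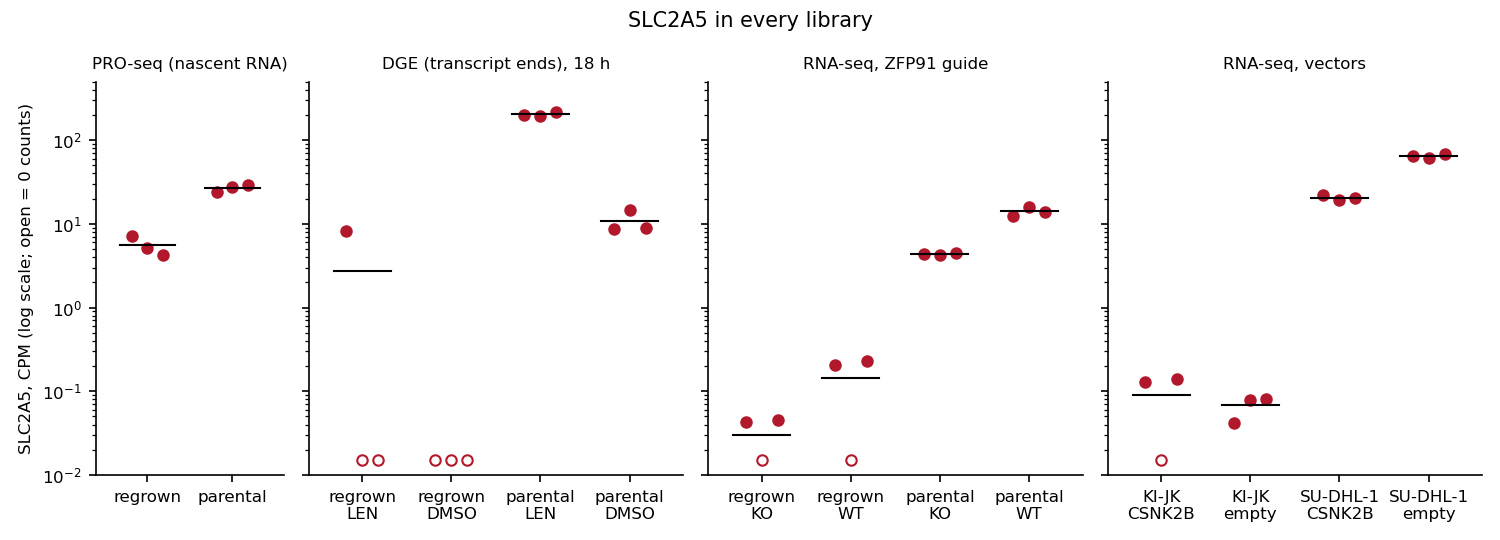
SLC2A5 in CPM, on a log scale, for each of the 42 libraries, by assay and group; points are libraries, bars are group means, and open points at the bottom are libraries with 0 counts. Regrown and KI-JK libraries lie below 1 CPM in RNA-seq, whereas parental libraries lie between 4.24 and 15.7 CPM. SU-DHL-1 libraries with either vector lie between 19.0 and 67.5 CPM.

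Regrowth was the first setting compared. In nascent RNA, SLC2A5 had 236, 205 and 202 PRO-seq counts in the regrown pools, which is 7.05, 5.19 and 4.28 CPM, against 920, 953 and 1074 counts in parental libraries, which is 23.8, 27.6 and 29.0 CPM. The groups did not overlap, and the fitted difference was -2.30 ± 0.20 on the log2 scale (SE, as for all fitted differences), 4.91-fold lower in regrown cells. In these bulk samples, fewer cells expressing a gene and less of its RNA per cell cannot be told apart. In this comparison 30.2% of the 16456 genes tested were called, 14% higher and 16.2% lower, at an adjusted p under 0.05 in edgeR's quasi-likelihood test with Benjamini-Hochberg adjustment, the test behind each adjusted p given here. None of the other 3 members was called.

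SLC2A1 gave 126, 102 and 140 CPM in regrown against 120, 84.1 and 101 CPM in parental nascent RNA, with overlapping groups (0.26 ± 0.15, adjusted p = 0.218). SLC2A3 gave 248, 248 and 249 CPM against 288, 253 and 222 CPM, again overlapping (-0.05 ± 0.12, adjusted p = 0.781). SLC2A6 gave 9.38, 12 and 14.3 CPM against 17.4, 14.0 and 19.6 CPM (-0.52 ± 0.19, adjusted p = 0.0584), so that 1 regrown library lay above the lowest parental one. DESeq2 put SLC2A6 on the other side of the threshold, with an adjusted p of 0.0232.

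Since PRO-seq reads cover the whole gene, its counts can be set per kilobase of the counted region to compare genes. SLC2A3 was transcribed most, at 14.6 ± 0.05 CPM per kb in regrown and 15.0 ± 1.94 in parental cells (SD, n = 3). SLC2A1 followed at 3.66 ± 0.58 and 3.04 ± 0.54 CPM per kb. SLC2A6 stood at 1.49 ± 0.31 in regrown and 2.11 ± 0.35 in parental cells. SLC2A5 was lowest, at 0.158 ± 0.04 in regrown and 0.769 ± 0.08 CPM per kb in parental cells, and in neither state did its libraries overlap those of another member. In regrown cells the order of the 4 levels per kb was the same as in parental cells. It depends on the counted lengths, 34.8 kb for SLC2A5 and 8 kb for SLC2A6. In CPM without that scaling, SLC2A5 was above SLC2A6 in parental cells (means 26.8 and 17.0) and below it in regrown cells (5.51 and 11.9).

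In transcript ends under DMSO, SLC2A5 had 0 counts in all 3 regrown libraries, which allows up to 2.97 CPM over the group (3 counts), against 3, 5 and 3 counts in parental libraries (8.62, 14.4 and 8.96 CPM). Taking the parental counts as exact and the floor over the group, it was at least 3.59-fold lower in regrown cells, and the 95% exact counting interval of the ratio, which covers both groups' counts, began at 2.46. Here 6.21% of 5941 genes were called, 2.91% higher and 3.3% lower, and neither of the 2 members that could be tested was among them. SLC2A1 gave 134, 111 and 53.7 CPM in regrown against 97.6, 130 and 176 CPM in parental cells (-0.41 ± 0.28, adjusted p = 0.495). SLC2A3 gave 220, 184 and 158 CPM against 221, 268 and 224 CPM (-0.35 ± 0.21, adjusted p = 0.406). SLC2A6 had only 0, 0 and 2 counts in regrown and 2, 2 and 3 counts in parental libraries, too few for the test in any DGE comparison.

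In steady RNA of the WT cells, SLC2A5 had 4, 0 and 4 counts in the regrown pools against 218, 267 and 282 counts in parental libraries (12.5, 15.7 and 13.8 CPM). The fitted difference was -6.46 ± 0.41, and with the length covariate -6.54. The ratio of summed CPM, parental over regrown, was 98.5 (95% exact counting interval 49.7 to 229). In the KO cells regrown libraries had 1, 0 and 1 counts against 67, 83 and 97 in parental libraries, and the same ratio was 139 (38.1 to 1155). The steady difference was thus larger on the log2 scale than the nascent one, and a test between the assays was not made.

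Of the other members, SLC2A1 and SLC2A6 fell in steady RNA of the regrown pools, in a comparison where 43.7% of 13379 genes were called, 22.6% higher and 21.1% lower. SLC2A1 gave 62.8, 71.9 and 57.6 CPM in regrown against 124, 123 and 116 CPM in parental cells, without overlap (-0.82 ± 0.10, adjusted p = 1.55e-05, and 0.0117 with the length covariate). SLC2A6 gave 2.09, 0.772 and 1.57 CPM against 6.56, 5.12 and 5.68 CPM (-1.87 ± 0.35, adjusted p = 0.000599, and 0.0479 with the covariate). SLC2A3 gave 446, 396 and 405 CPM against 456, 487 and 465 CPM, and the groups did not overlap, yet the difference of -0.08 ± 0.08 was not called (adjusted p = 0.481). SLC2A1 was lower in steady RNA and, with a positive value, not called in nascent RNA. With library size as the only scaling, the median of all genes in the steady comparison moved to -0.10, small beside the falls of SLC2A1 and SLC2A6.

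**Figure D2:**
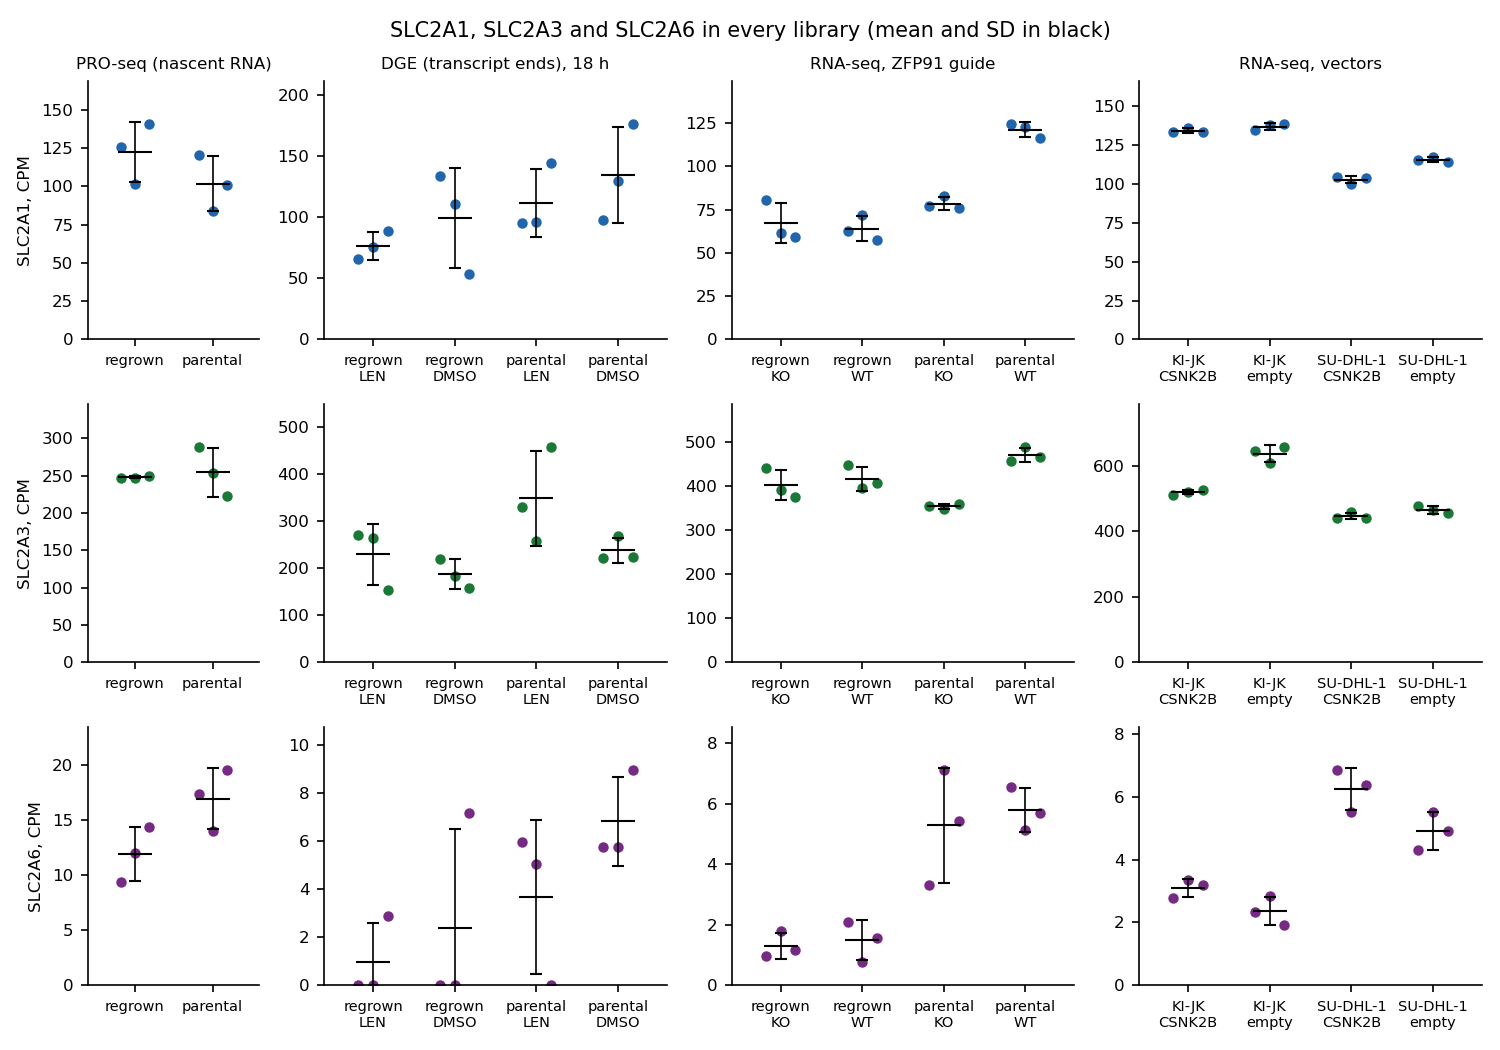
SLC2A1, SLC2A3 and SLC2A6 in CPM for each of the 42 libraries, by assay and group; points are libraries and black marks are the mean and SD of 3. In RNA-seq SLC2A1 lies at 57.6 to 71.9 CPM in regrown WT against 116 to 124 CPM in parental WT libraries, whereas SLC2A3 stays between 154 and 657 CPM in every library.

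Myeloid markers were measured beside these results, since SLC2A5 and SLC2A6 are also expressed in myeloid cells. Of 9 such markers, only CD163 and CSF1R exceeded 1 CPM in each SU-DHL-1 RNA-seq group, and SPI1, which encodes a defining myeloid factor, was at 0 in regrown WT, parental KO and parental WT cells. Their summed level was 11.7 to 15.3 CPM in regrown WT against 323 to 338 CPM in parental WT cells, with CD163, a scavenger receptor, at a mean of 5.66 against 313 CPM. DGE listed only 2 of the 9 markers, CD163 and CSF1R. Their sum was 13.5 to 25.1 CPM in regrown DMSO libraries, and 260 to 577 under lenalidomide against 140 to 173 CPM under DMSO in parental cells. With the ZFP91 knockout in parental cells the sum of the 9 was 393 to 408 against 323 to 338 CPM, and with the CSNK2B vector in SU-DHL-1 589 to 600 against 591 to 607 CPM. The sum was thus lower with SLC2A5 on regrowth and higher with it under lenalidomide, but not lower with it in the knockout. With the CSNK2B vector its ranges overlapped. In parental and vector SU-DHL-1 cells the sum was mostly CD163. CSF1R alone was lower in regrown WT (5.50 to 8.18 CPM) and parental KO cells (11.1 to 13.2) than in parental WT cells (14.8 to 17.2). With CSNK2B in SU-DHL-1 it was at 16.6 to 19.2 against 19.6 to 20.1 CPM. Under lenalidomide in parental cells it was at 0 to 17.9 against 14.4 to 28.7 CPM. The part of these markers in the results was not tested.

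Lenalidomide was the second setting. In parental cells SLC2A5 had 66, 77 and 9 counts under the drug, which is 197, 195 and 216 CPM, against 3, 5 and 3 counts under DMSO, which is 8.62, 14.4 and 8.96 CPM. The third lenalidomide library held 41571 counts in all, and its 9 SLC2A5 counts gave a CPM close to those of the other 2. The means were 202.6 ± 12.1 and 10.7 ± 3.25 CPM (SD, n = 3), and the fitted difference was 4.21 ± 0.36, 18.6-fold higher under lenalidomide. SLC2A5 passed the filter here through the lenalidomide libraries alone. In this comparison 0.845% of 5796 genes were called, 0.673% higher and 0.173% lower.

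Regrown cells gave 1, 0 and 0 SLC2A5 counts under lenalidomide and 0, 0 and 0 under DMSO, too few for a fit. Under the drug the ratio of summed CPM, parental over regrown, was 119 (95% exact counting interval 21.0 to 4723). Under lenalidomide the regrown pools thus had 1 count over the group, against 152 in the parental group, whose libraries had 9 to 77 each. Under DMSO they had 0 counts over the group, against 11 in the parental group. Regrown lenalidomide replicates 1 and 2 held only 122167 and 132406 counts in all.

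SLC2A1 and SLC2A3 were not called under lenalidomide in either state. SLC2A1 gave 95.3, 96.0 and 144 CPM against 97.6, 130 and 176 CPM in parental cells (-0.37 ± 0.28, adjusted p = 0.792), and 65.5, 75.5 and 88.7 against 134, 111 and 53.7 CPM in regrown cells (-0.34 ± 0.38, adjusted p = 0.997). SLC2A3 gave 331, 258 and 457 CPM against 221, 268 and 224 CPM in parental cells (0.45 ± 0.22, adjusted p = 0.563), and 270, 264 and 154 against 220, 184 and 158 CPM in regrown cells (0.25 ± 0.29, adjusted p = 0.997). In the regrown comparison 0.23% of 5661 genes were called, all of them higher. The responses of the 2 genes in regrown and parental cells were also compared directly, with differences of 0.04 for SLC2A1 and -0.22 for SLC2A3 and an adjusted p of 1.00 for both. In that interaction edgeR and DESeq2 each called 0 genes (0%), and 285 of 6838 had an unadjusted p under 0.05 in edgeR.

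Loss of ZFP91 was the third setting. In parental cells SLC2A5 had 67, 83 and 97 counts in KO libraries (4.35, 4.24 and 4.45 CPM), against 218, 267 and 282 counts in WT libraries (12.5, 15.7 and 13.8 CPM). The 2 groups stood apart, with a fitted difference of -1.65 ± 0.15, 3.15-fold lower in KO cells, and -1.66 with the length covariate. This stood in a comparison where 0.427% of 13354 genes were called, 0.0599% higher and 0.367% lower. In regrown cells SLC2A5 had 1, 0 and 1 counts in KO libraries against 4, 0 and 4 in WT libraries. The parental WT libraries also serve in the regrowth comparison above, so the 2 comparisons share them. The ratio of summed CPM in regrown cells, WT over KO, was 4.54 (95% exact counting interval 0.907 to 43.9), an interval that holds both no difference and the parental fold.

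SLC2A1 fell in parental KO cells, at 76.9, 82.7 and 75.9 CPM against 124, 123 and 116 CPM in WT cells (-0.59 ± 0.08, adjusted p = 0.0176). That call was lost, with an adjusted p of up to 0.243, without KO replicate 3 or without any of the 3 WT replicates, although the change stayed between -0.63 and -0.56. SLC2A3 gave 355, 347 and 358 CPM in KO against 456, 487 and 465 CPM in WT cells, groups that did not overlap. Its difference of -0.38 ± 0.08 was not called in edgeR (adjusted p = 0.107) but was in DESeq2 (0.000345), with no filter (0.0258) and with the length covariate (1.63e-07). SLC2A6 gave 3.31, 7.10 and 5.41 CPM in KO against 6.56, 5.12 and 5.68 CPM in WT cells (-0.09 ± 0.26, adjusted p = 0.972).

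In regrown cells none of the 3 members that could be tested was called after the knockout, where 31.9% of 13107 genes were, 16.3% higher and 15.7% lower. SLC2A1 gave 80.6, 61.7 and 59.2 CPM in KO against 62.8, 71.9 and 57.6 CPM in WT cells (0.03 ± 0.12, adjusted p = 0.890). SLC2A3 gave 440, 390 and 375 against 446, 396 and 405 CPM (-0.09 ± 0.08, adjusted p = 0.417), and SLC2A6 0.954, 1.79 and 1.143 against 2.09, 0.772 and 1.57 CPM (-0.24 ± 0.47, adjusted p = 0.733). The SLC2A1 response in regrown cells differed from that in parental cells by 0.61 ± 0.16 (adjusted p = 0.0322), in an interaction that called 9.81% of 14267 genes, 4.47% higher and 5.33% lower. The same difference gave 0.53 with the length covariate (adjusted p = 0.146), so its call did not hold there. For SLC2A3 the difference between responses was 0.28 ± 0.11 (adjusted p = 0.109).

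The CSNK2B vector was the fourth setting. In SU-DHL-1, SLC2A5 had 429, 372 and 387 counts with the vector (22.3, 19.0 and 20.3 CPM), against 1564, 890 and 1129 counts with the empty vector (64.9, 61.6 and 67.5 CPM). The groups were far apart relative to their spread, at -1.66 ± 0.06, 3.16-fold lower with CSNK2B. Here 6.74% of 13727 genes were called, 3.39% higher and 3.34% lower. In KI-JK, SLC2A5 had 3, 0 and 4 counts with CSNK2B against 1, 2 and 2 with the empty vector, a ratio of summed CPM, CSNK2B over empty, of 1.35 (95% exact counting interval 0.370 to 5.41). The regrown cells, in which SLC2A5 was low, had more CSNK2B RNA than parental cells in each assay, on the log2 scale by 2.05 ± 0.14 (PRO-seq), 1.70 ± 0.16 (DGE) and 0.86 ± 0.16 (RNA-seq of WT cells). KI-JK, in which SLC2A5 was low too, had less CSNK2B RNA than SU-DHL-1, both with the empty vector (-0.74 ± 0.07). A link between CSNK2B and SLC2A5 levels across these cells was not tested.

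SLC2A1 fell slightly with CSNK2B in SU-DHL-1, at 104, 100 and 104 CPM against 116, 117 and 114 CPM with the empty vector (-0.18 ± 0.04, adjusted p = 0.00708, and 0.0522 without empty-vector replicate 1). In KI-JK it gave 133, 136 and 133 against 135, 138 and 138 CPM (-0.01 ± 0.04, adjusted p = 0.879), where 35.7% of 14104 genes were called, 18.4% higher and 17.3% lower. SLC2A3 showed the opposite pattern of calls. It fell in KI-JK, at 512, 521 and 525 CPM with CSNK2B against 645, 608 and 657 CPM (-0.27 ± 0.04, adjusted p = 3.14e-06), and was not called in SU-DHL-1, at 442, 459 and 441 against 478, 464 and 455 CPM (-0.06 ± 0.04, adjusted p = 0.366). The responses of the lines, KI-JK minus SU-DHL-1, differed by -0.20 ± 0.05 for SLC2A3 (adjusted p = 0.00896) and by 0.18 ± 0.06 for SLC2A1 (adjusted p = 0.0227), in an interaction that called 19.2% of 15564 genes, 10.7% higher and 8.44% lower. The second of these calls was lost with library size as the only scaling (adjusted p = 0.0555), with no filter (0.324) and without any of 8 libraries in turn (up to 0.0769).

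SLC2A6 was not called in either line. It gave 6.86, 5.53 and 6.39 CPM with CSNK2B against 4.31, 5.54 and 4.90 CPM in SU-DHL-1 (0.36 ± 0.14, adjusted p = 0.149), and 2.77, 3.34 and 3.18 against 2.33, 2.83 and 1.93 CPM in KI-JK (0.41 ± 0.21, adjusted p = 0.146). Both values were positive, and the difference between them was 0.07 (adjusted p = 0.911).

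Between the lines themselves the other 3 members were called and SLC2A5 was far lower in KI-JK. The comparison called 78.8% of 14786 genes, 40.1% higher and 38.7% lower in KI-JK. It sets single lines against each other, in separate tables and in media with different amounts of serum (20% for KI-JK, 10% for SU-DHL-1). SLC2A5 had 1, 2 and 2 counts in KI-JK against 1564, 890 and 1129 counts in SU-DHL-1, both with the empty vector (-9.73 ± 0.15). It passed the filter through the SU-DHL-1 libraries alone, which had also served in its choice, so no test is given. The ratio of summed CPM, SU-DHL-1 over KI-JK, was 952 (95% exact counting interval 408 to 2935). That interval is far wider than the SE of the fitted difference, which understates the error of 5 KI-JK counts. SLC2A6 was lower in KI-JK (-1.0 ± 0.20, adjusted p = 4.20e-05). SLC2A3 and SLC2A1 were higher there, by 0.49 ± 0.04 (adjusted p = 1.11e-12) and 0.29 ± 0.04 (adjusted p = 1.68e-07) on the log2 scale.

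SLC2A14, a near-identical copy of SLC2A3, had 0 to 8 counts in each RNA-seq library. Reads shared between the 2 genes could have been split or dropped in counting, so SLC2A3 levels carry that uncertainty.

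**Figure D3:**
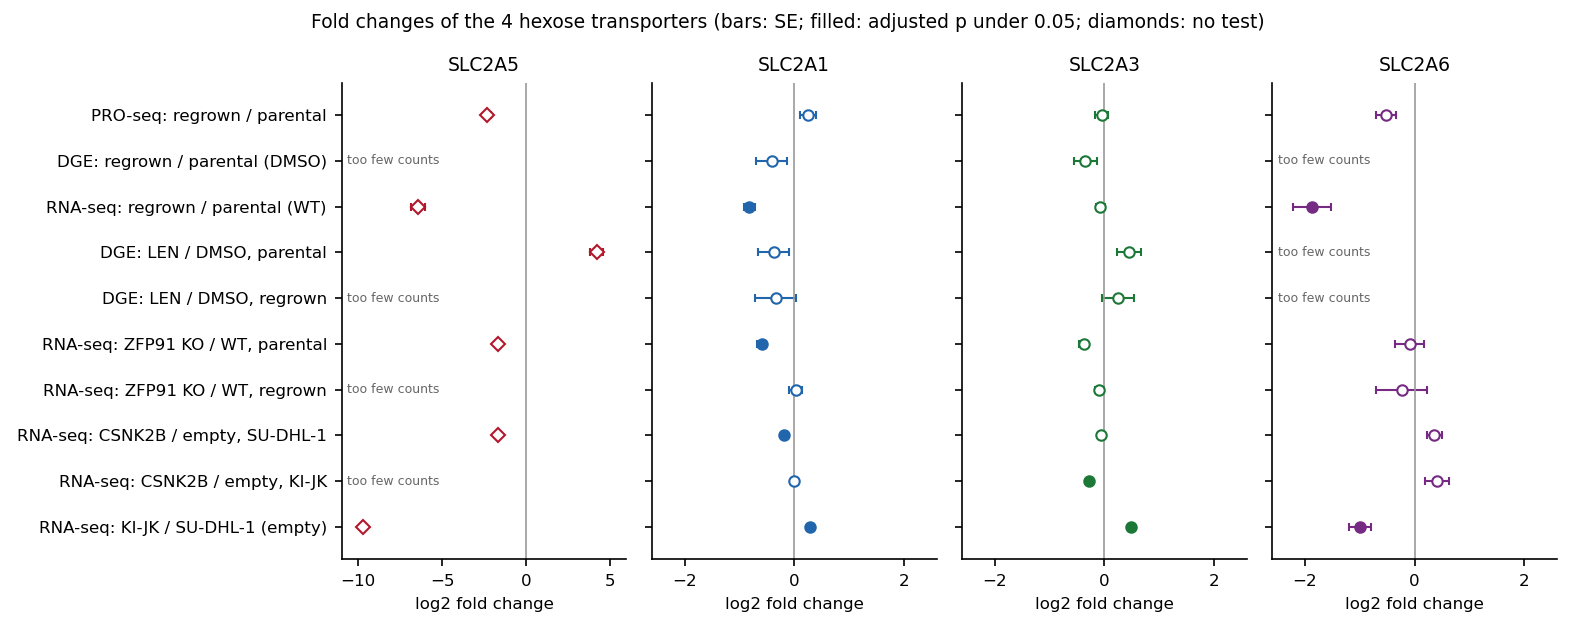
Fitted log2 fold changes of the 4 genes in the 10 comparisons of 2 groups, first-named group over second; bars are SE, filled points have an adjusted p under 0.05, and diamonds mark SLC2A5 values given with no test. SLC2A5 (wider axis) runs from -9.73 to 4.21, and the other 3 genes stay between -1.87 and 0.49.

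The 5 genes whose levels followed SLC2A5 most closely were taken by the smaller of 2 Pearson correlations of log CPM, over the 12 DGE and over the 12 ZFP91-table libraries, among 6157 genes. The libraries share groups and state, so these values describe them only. They were STON1, an endocytic adaptor gene (0.952 in DGE and 0.904 in RNA-seq), VGF, a secreted neuropeptide precursor (0.900 and 0.949), ZBTB38, a methyl-DNA-binding zinc finger gene (0.895 and 0.931), PLEKHA4 (0.979 and 0.891) and VCAN, which encodes the matrix proteoglycan versican (0.883 and 0.932). PRO-seq had not entered that choice, but it compares the same regrown and parental states, so a fall there was favoured by the choice. In it 4 of the 5 fell in regrown cells, where 16.2% of all genes tested were lower. VCAN fell by 1.32 ± 0.14 (adjusted p = 6.72e-05), PLEKHA4 by 1.22 ± 0.17 (0.000449), STON1 by 1.06 ± 0.11 (8.34e-05) and ZBTB38 by 0.87 ± 0.13 (0.000723), all less than SLC2A5. VGF gave 0.00 ± 0.11 (adjusted p = 0.993). The CSNK2B vector in SU-DHL-1 had not entered the choice either. There PLEKHA4 fell by 0.49 ± 0.12 (adjusted p = 0.0106), ZBTB38 rose by 0.17 ± 0.04 (0.00647) and the other 3 were not called, STON1 at -0.01, VCAN at -0.13 and VGF at 0.04. The PLEKHA4 and ZBTB38 calls were each lost without CSNK2B replicate 2 or empty-vector replicate 2 (adjusted p between 0.0504 and 0.073), and that of PLEKHA4 also without CSNK2B replicate 3 (0.0598). The knockout libraries had entered the choice, yet none of the 5 was called in parental KO against WT cells, where 0.427% of all genes were. PLEKHA4 was at -0.50, STON1 at -0.39, ZBTB38 at -0.12, VCAN at 0.11 and VGF at 0.18, against -1.65 for SLC2A5.

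The genes next to SLC2A5 on chromosome 1 were compared with it, 10 tested genes on either side. Their median change was -0.12 in PRO-seq and -0.07 in RNA-seq on regrowth, -0.04 under lenalidomide in parental cells, -0.03 with the ZFP91 knockout and -0.02 with the CSNK2B vector in SU-DHL-1. SLC2A5 was chosen for its changes in these settings, so its place among the neighbours follows in part from that choice and is a description only. In the knockout, vector and steady regrowth comparisons none of the 20 was as low as SLC2A5, and under lenalidomide none was as high. On regrowth 6 of the 20 fell and 0 rose in nascent RNA, where 16.2% of all genes tested were lower and 14% higher. In steady RNA, where 21.1% of all genes were lower and 22.6% higher, 6 of the 20 fell and 1 rose. The 1 that rose was TMEM201 (0.54, adjusted p = 0.000301 in edgeR, and 0.0701 with the length covariate). After the parental knockout, where 0.367% of all genes were lower, 2 of the 20 fell, ERRFI1 and TNFRSF9. With the vector, where 3.34% of all genes were lower, 1 fell, ERRFI1. Under lenalidomide, where 0.845% of all genes were called, none of the 20 was called in edgeR. GPR157, an orphan receptor gene beside it, fell in nascent RNA of regrown cells by 1.10 ± 0.20 (adjusted p = 0.00213). In steady RNA GPR157 was at -1.21 ± 0.42 (adjusted p = 0.0297), a call lost with the length covariate (0.48) and without any of 5 of the 6 libraries (0.057 to 0.113).

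The other falls in nascent RNA were those of PER3, a circadian clock gene (-0.75, adjusted p = 0.00763), ERRFI1-DT (-1.44, 0.000126) and PIK3CD-AS2 (-1.27, 0.00385), beside ERRFI1 and TNFRSF9. In steady RNA PIK3CD, the gene of a catalytic PI3-kinase subunit, fell (-2.16, adjusted p = 0.00148), as did MIR34AHG (-1.80, 0.00558), although with the length covariate both calls were lost (0.0742 and 0.232).

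In PRO-seq 1 of the 20 was as low as SLC2A5, namely ERRFI1, which encodes an inhibitor of ERBB receptors. It is named after its values were seen, as are the other neighbours given and TNFRSF9, the gene of the costimulatory receptor CD137. ERRFI1 fell in nascent RNA (-2.77 ± 0.11, adjusted p = 1.56e-07) and in steady RNA of regrown WT cells (-5.43 ± 0.38, adjusted p = 8.97e-08). TNFRSF9 fell in nascent RNA (-2.22, adjusted p = 0.00013) and in steady RNA (-1.92, adjusted p = 1.72e-06) of regrown cells, and in parental KO against WT cells (-1.36, adjusted p = 0.00405, and 0.0579 without WT replicate 2). ERRFI1 was also lower in parental KO cells (-0.83, adjusted p = 0.0151) and with the CSNK2B vector in SU-DHL-1 (-0.47, adjusted p = 6.88e-07). The first of these calls was lost without KO replicate 3 (adjusted p = 0.165) or any WT replicate (0.0961 to 0.145).

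**Figure D4:**
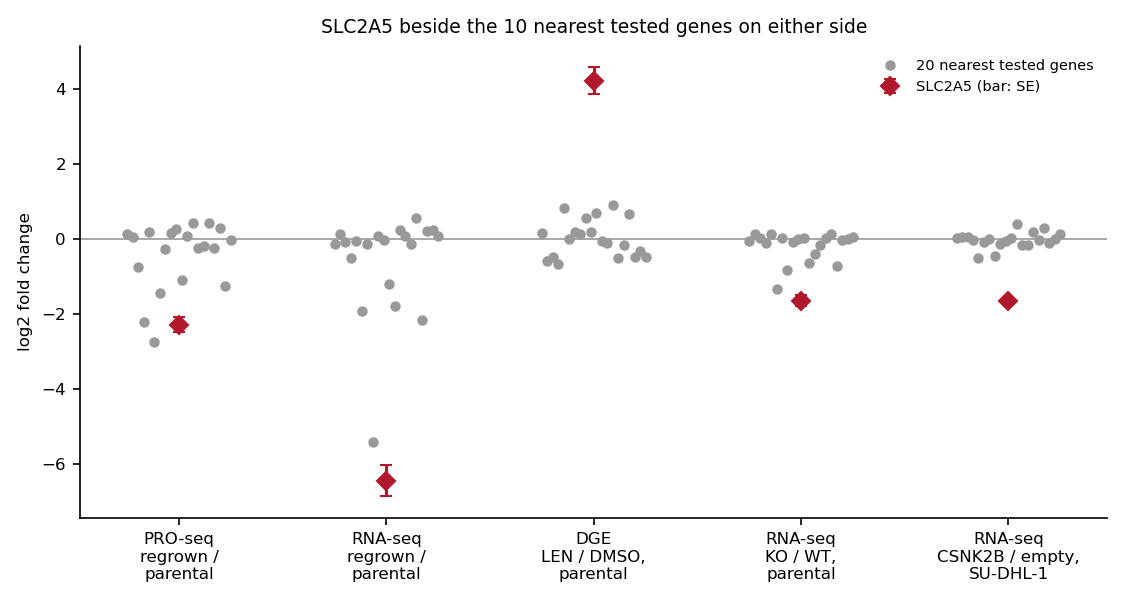
Log2 fold change of SLC2A5 (diamonds, with SE) and of the 20 nearest tested genes, 10 on either side in chromosome order (grey points), in 5 comparisons. The neighbours' medians lie between -0.12 and -0.02, with called falls of 6 of 20 in both regrowth comparisons. Of all genes tested on regrowth, 16.2% fell in PRO-seq and 21.1% in RNA-seq. SLC2A5, chosen for its changes in these settings, lies outside the neighbours' range in every comparison but PRO-seq, where ERRFI1 is lower at -2.77.

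Genes that handle hexoses were counted in 8 lists with 81 genes, chosen with earlier results of these data known. Counts below are of genes called among the list's genes tested, to be read beside the share of all genes called in the same comparison. In PRO-seq that share was 14% higher and 16.2% lower. On regrowth in PRO-seq, 1 of 3 other SLC2A transporters fell, SLC2A4, which encodes the insulin-responsive GLUT4 (-0.93, adjusted p = 0.00383), and 1 of 4 hexokinases, HK3 (-1.06, 0.00111). Of 7 fructose and polyol genes 2 rose, AKR1B1, the aldose reductase gene (0.50), and GLYCTK, the glycerate kinase gene (0.41), with calls lost without any of 4 and 5 libraries. Of 16 glycolysis genes 4 rose, led by ENO2 (0.81), and 1 fell, PFKFB2 (-1.01). Pentose phosphate genes had 1 rise, TKT (0.40), and 1 fall, RPIA (-0.39), of 8, both lost without parental replicate 1 (adjusted p of 0.0577 and 0.0783) or 2 (0.0646 and 0.0692). None of the 7 sodium-coupled SLC5 transporters had counts enough for the test, and none of 6 lactate and pyruvate carriers was called in edgeR. Genes of transporter trafficking and glucose sensing had 3 rises and 3 falls of 13. Among them TBC1D1, a Rab regulator of GLUT4 traffic, rose by 1.84 and TXNIP, an arrestin that lowers GLUT1 at the surface, fell by 1.23. List medians ran from -0.07 to 0.24, against 0.02 for all genes.

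In steady RNA of regrown WT cells, 7 of 17 glycolysis genes fell and 1 rose, with a median of -0.32 against -0.00 for all genes. Of all genes tested there, 21.1% were lower and 22.6% higher. PFKFB4, which makes a regulator of phosphofructokinase, fell by 1.28 (adjusted p = 3.29e-06) and GPI, the glucose-6-phosphate isomerase gene, by 0.50, while PFKP rose by 0.53. In nascent RNA PFKFB4 had risen by 0.61 (0.0298). Of 7 fructose genes KHK, the ketohexokinase gene, fell by 0.67 and ALDOC, a fructose-bisphosphate aldolase gene, by 0.68. SLC2A4 again fell (-1.63), TBC1D1 rose by 5.14 and TXNIP fell by 1.61. With the length covariate the calls of KHK (adjusted p = 0.265), ALDOC (0.145), SLC2A4 (0.259) and PFKP (0.069) were lost, whereas those of PFKFB4, GPI, TBC1D1 and TXNIP held.

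Under lenalidomide in parental cells none of 16 glycolysis genes was called in edgeR, and EPAS1, which encodes a hypoxia-inducible factor, was the 1 gene of 9 in the trafficking and sensing list (0.76, adjusted p = 0.0205, and up to 0.429 without 1 library). Of all genes tested there, 0.845% were called. After the knockout in parental cells PFKFB4 fell by 1.02 (0.00653) as 1 of 17 glycolysis genes, and ALDOC by 1.27 (0.0151) as 1 of 7 fructose genes. Of all genes tested there, 0.367% were lower. The PFKFB4 call was lost without KO replicate 3 (0.0577) or WT replicate 2 (0.0656), and that of ALDOC without KO replicate 3 (0.0891) or any WT replicate (0.0885 to 0.152). In regrown KO cells 6 of 17 glycolysis genes were called, 2 higher and 4 lower. Of all genes tested there, 16.3% were higher and 15.7% lower. With the length covariate no gene was called in that comparison in edgeR, against 4186 without it. The covariate separates the regrown KO from the regrown WT libraries, so this loss cannot tell gene span and knockout apart.

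With the CSNK2B vector the glycolysis genes that were called were all lower. In KI-JK 10 of 17 fell and 0 rose (median -0.13 against -0.01 for all genes), among them PFKFB4 by 0.97 (adjusted p = 2.81e-11) and ENO2 by 0.63 (2.89e-10). Of all genes tested in KI-JK, 17.3% were lower and 18.4% higher. In SU-DHL-1, where 3.34% of all genes tested were lower and 3.39% higher, 6 of 17 fell and 0 rose (median -0.10 against 0.00). PFKP led at -0.53 (1.85e-09), with ENO2 at -0.25 and PFKFB4 at -0.30. ALDOC fell in both lines as well, by 0.86 in KI-JK and by 0.39 in SU-DHL-1. HK2, a hexokinase gene, rose in KI-JK by 0.49 (6.04e-07), where 4 of 6 lactate and pyruvate transport genes rose, led by the lactate carrier gene SLC16A7 (0.42) and followed by SLC16A1 (0.20), MPC1 (0.22) and BSG (0.11), and 1 fell, SLC16A3 (-0.34). In SU-DHL-1 none of 3 hexokinases and none of 6 lactate and pyruvate carriers was called in edgeR.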

How the data were processed

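The members and the lists were chosen with earlier results of these data known. The deposited values were counts per gene, with no normalization by the authors. The submitters' processing notes name cutadapt 1.14, Bowtie 1.2.2, featureCounts 1.6.2 and hg38 for the nascent RNA, STAR 2.6.1d and hg38 for RNA-seq, and Bowtie2 2.2.3 and hg19 for DGE. The RNA-seq counting tool, its use of strand and the use of molecular identifiers in DGE are not given in the sources used here, so counting intervals and floors cover counting error only.

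Each comparison was fitted to its own groups over all genes with edgeR 4.0.16 (filterByExpr, TMM scaling, quasi-likelihood F-test, R 4.3.3), with Benjamini-Hochberg adjustment, two-sided, and a gene was called at an adjusted p under 0.05. The SE is the size of the log2 change over the root of the F statistic. It can be too small where a group holds only a few counts, as for SLC2A5 in regrown and KI-JK cells, where counting intervals are also given. There were 10 comparisons of 2 groups and 3 interactions. Levels are CPM on unscaled totals. A fold against 0 counts used a floor of 3 counts over the group. The fits were tested on simulated counts with known changes. The alternatives were DESeq2's size factors, library size only, no filter, DESeq2 1.42.0, all 4 groups in 1 fit, a replicate block, each library left out in turn, and, added after seeing the data, a gene-length score (correlation of level with gene span) as covariate in the ZFP91 table. Named from a list were its called genes with the lowest p, or the 1 that moved against the others; not every one is printed.

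Regrown pool numbers in the labels pair libraries of the same pool, regrown lenalidomide with DMSO and regrown KO with WT. Deviations of same-numbered libraries from their group means correlated at -0.068, 0.118 and 0.0483 in the first pair of groups and at 0.00565, 0.0426 and 0.101 in the second. Nothing in the labels says that parental or vector replicates came from separate cultures, so p-values measure the spread between these libraries, which may be technical. No 2 replicates were duplicates (smallest chi-square per degree of freedom 1.34).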

Additional observations from a re-analysis of the deposited data

Results flagged for a closer look

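The response of SLC2A1 to the ZFP91 knockout differed between regrown and parental cells by 0.611 on the log2 scale in the edgeR interaction test, as regrown KO cells held 59.2 to 80.6 CPM against 57.6 to 71.9 CPM in regrown WT cells, and parental KO cells 75.9 to 82.7 CPM against 116 to 124 CPM in parental WT cells. The response of SLC2A1 to the CSNK2B vector differed between KI-JK and SU-DHL-1 by 0.18. That of SLC2A3 differed between the same lines by -0.198.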

How the results depend on the processing

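SLC2A5 kept its direction in each of its fitted comparisons under each alternative run; leaving out single libraries gave -2.53 to -2.14 in PRO-seq, 4.07 to 4.46 under lenalidomide, -1.72 to -1.58 with the knockout, -6.92 to -5.88 in steady RNA of regrown cells, -9.86 to -9.51 between the lines and -1.73 to -1.61 with CSNK2B in SU-DHL-1. SLC2A6 in PRO-seq passed the threshold at -0.53 with DESeq2 and at -0.53 with a replicate block (adjusted p = 0.0417). SLC2A3 in parental KO cells passed it at -0.39 with no filter, -0.38 with DESeq2 and -0.38 with the length covariate. The SLC2A1 interactions lost their calls at 0.53 with the covariate (knockout), and at 0.14 with library size only and 0.15 with no filter (CSNK2B). Signs turned, without a call either way, for SLC2A1 (-0.62) and SLC2A6 (0.34) in regrown KO cells with the covariate, for SLC2A1 in KI-JK with no filter (0.00057), and for VGF in PRO-seq with DESeq2's size factors (-0.0079), DESeq2 (-0.0079) and the block (-0.00074). The cause was not tested.

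Without single libraries SLC2A3 ran from -0.15 to 0.052 and SLC2A6 from -0.67 to -0.39 in PRO-seq, and VGF from -0.049 to 0.085. SLC2A1 ran from -0.63 to -0.56 and SLC2A6 from -0.36 to 0.14 in parental KO cells, and they ran from -0.11 to 0.13 and from -0.53 to 0.10 in regrown KO cells. With CSNK2B, SLC2A1 ran from -0.19 to -0.16 in SU-DHL-1 and from -0.018 to 0.00054 in KI-JK. The lenalidomide interaction ran from -0.21 to 0.31 for SLC2A1 and from -0.37 to 0.063 for SLC2A3, the knockout interaction from 0.47 to 0.72 for SLC2A1 (7 of 12 lost the call, up to 0.0964) and from -0.45 to 0.19 for SLC2A6, and the CSNK2B interaction from 0.15 to 0.21 for SLC2A1 and from -0.072 to 0.20 for SLC2A6.

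Counts of called genes moved more. Lenalidomide in parental cells called 49 genes, against 26 with DESeq2, 28 with all 4 groups in 1 fit and 25 to 105 without 1 library; in regrown cells 13, against 20 with no filter and 7 to 13. Regrown against parental DMSO libraries gave 369, against 240 with DESeq2 and 222 to 512. The parental knockout gave 57, against 231 with no filter, 198 with DESeq2, 1147 with the covariate and 0 to 110 without 1 library, 0 being without WT replicate 2. The regrown knockout gave 4186, against 0 with the covariate and 2410 to 5519; regrown against parental WT gave 5850, against 1758 with the covariate. The knockout interaction gave 1399, against 2333 with no filter, 2410 with DESeq2, 2257 with the block, 40 with the covariate and 0 to 3355. PRO-seq gave 4973, against 3245 to 5322, and CSNK2B in SU-DHL-1 925, against 582 to 902. The replicate block gave 13 and 4281 calls in the regrown lenalidomide and regrown knockout comparisons, where pools pair the libraries, and changed no call of a member there. In the other groups numbers mark no shared source by the labels; same-numbered PRO-seq libraries correlated at 0.192, 0.0283 and 0.0208, and the block gave 1 call in the lenalidomide interaction against 0 without it. Depth limits DGE, where SLC2A6 never had counts enough for a fit, and SLC2A5 only in parental cells under the drug.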
